A study of Drosophila melanogaster with 26 samples.

Results

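Primordial germ cells (PGCs) of the Drosophila embryo carried 36 array transcripts that were both far above the level in somatic cells soon after the cells had formed and that had not fallen by 1.5 or more on the log2 scale 2 hours later. These 36 members were chosen from the 16623 transcripts with a FlyBase transcript identifier by 3 conditions on mean log2 signal: at least 10 in wild-type PGCs at 1-3 h, at least 4 above somatic cells of the same age (16-fold), and a change of more than -1.5 from 1-3 h to 3-5 h in wild-type PGCs. The first pair of conditions was met by 46 transcripts, and the other 10 of these fell by 1.5 or more. All 36 members could be paired with a gene, and they come from 33 genes, since qin is represented by 3 array rows and RapGAP1 by 2. Values of wild-type PGCs at 1-3 h and 3-5 h and of somatic cells made the choice, so that for these groups the values below are descriptions without a test.

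PGCs, also called pole cells, form at the posterior tip of the embryo around germ plasm, a cytoplasm laid down in the egg that holds localized mRNAs and proteins. They start with maternal transcripts only and keep their own genome silent for longer than the soma does, while the embryo passes through the maternal-to-zygotic transition, in which maternal mRNAs are removed and zygotic ones appear. Smaug is an RNA-binding protein that represses and destabilizes maternal mRNAs by recruiting a deadenylase. The piRNA pathway, in which small RNAs bound to Piwi-family proteins silence transposons, is active in germ cells, and several of its components are supplied maternally.

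The mutant groups were smaug-mutant PGCs at 1-3 h (3 replicates), 3-5 h (3 replicates) and 5-7 h (4 replicates), and the wild-type groups, of 4 replicates each, were PGCs of these ages and somatic cells at 1-3 h, 26 samples in all. Mutant embryos came from mothers that carried smg1 over the deficiency Df(3L)Scf-R6. The labels list w1118, VASA-GFP/CyO and PrDr/TM3,Sb, and, for the mutation, VASA-GFP/CyO with smg1/TM3,Sb beside Df(3L)Scf-R6/TM3,Sb, and do not say which of these was the wild type. VASA-GFP, a fusion of the germline helicase Vasa that both genotypes carried, marked the sorted PGCs, and the somatic cells were the GFP-negative cells of the same sorts, a mixture of all other cell types. Each sample pooled cells of many embryos collected over 2 hours, and the mutation acted through the mother, so the zygotic genotype was not selected. Expression was measured on custom NimbleGen arrays, with signals normalized by quantiles, and a log2 difference of 1 is a 2-fold change. Each array took a Cy3-labelled and a Cy5-labelled sample. The labels give Cy3 for somatic cells and for smaug-mutant PGCs at 3-5 h and Cy5 for all other groups, and the methods instead assign Cy3 to wild-type and Cy5 to mutant material, so dye and group cannot be told apart where they differ. In such pools fewer cells of a type and less RNA per cell cannot be told apart either.

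The labels were checked against the markers. Of 2 smaug transcripts, FBtr0076549 had 8.97 to 11.40 in mutant and 12.93 to 13.77 in wild-type PGCs at 1-3 h. The other (FBtr0076550) had 11.19 to 11.73 in mutant and 13.25 to 13.98 in wild-type PGCs at 1-3 h. The 8 PGC marker genes that could be named, of 9 listed, had a summed linear intensity of 161198 to 176541 in wild-type PGCs and 13786 to 18114 in somatic cells at 1-3 h. Genes were named only through the study's lists, so a listed marker without a name may still be on the array. Replicates 3 and 4 of wild-type PGCs at 5-7 h stood apart from every other PGC sample. The 50 transcripts most enriched in somatic cells, chosen at a log2 signal of at least 12 there, had a median of 60.42% to 68.17% of their somatic level in these replicates, against 1.84% to 2.32% in replicates 1 and 2 of the same group, 1.45% to 2.60% in mutant PGCs of that age, and at most 1.37% in all younger PGC samples. The 12 somatic patterning genes named, of 29 listed, summed to 63111 to 67660 in replicates 3 and 4, to 12982 to 15547 in replicates 1 and 2, and to 68413 to 76525 in somatic cells. The PGC markers summed to 42233 to 51742 in replicates 3 and 4, above somatic cells, and to 105785 to 111715 in replicates 1 and 2. Extracellular matrix and hemocyte markers had 6145 to 7526 in replicates 3 and 4, against 37927 to 44774 in somatic cells. Mesoderm had 22482 to 25371, against 28873 to 34095. Endoderm had 5592 to 10089, against 3672 to 4531, and neural 2850 to 4078, against 2490 to 3485. In wild-type PGCs the somatic patterning genes summed to 10305 to 13234 at 1-3 h and 27752 to 32178 at 3-5 h. At 3-5 h the PGC markers summed to 78460 to 93722. Of the somatic lists given below, endoderm was also higher at 3-5 h. Mesoderm and neural were lower there, and extracellular matrix and hemocytes overlapped. The source of these differences was not tested. No marker of either list is at 0, since every feature of the table has a positive intensity. The median of the 36 members was 7.53 and 8.41 in replicates 3 and 4, against 10.97 and 11.33 in replicates 1 and 2. All 36 members were over 2-fold lower in replicates 3 and 4, as were 18.8% of all transcripts, with a median difference of -3.15 for the members and 0.01 for all transcripts. Counts and medians that use wild-type PGCs at 5-7 h are therefore given with and without these replicates.

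**Figure D1:**
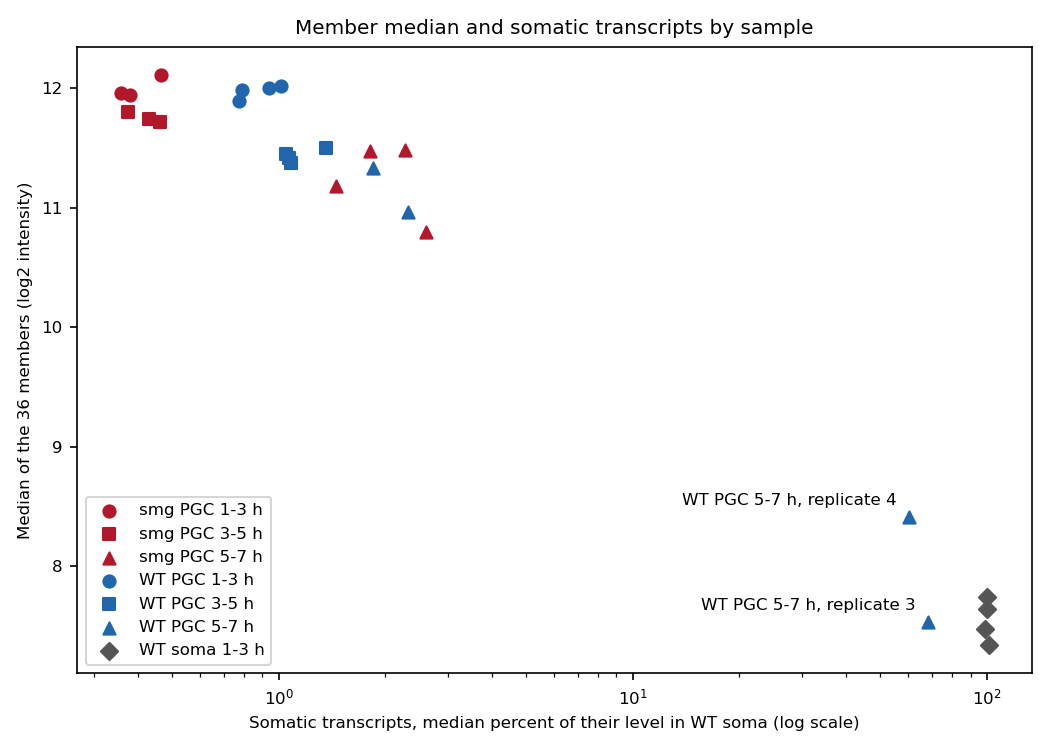
Median log2 signal of the 36 members (vertical axis) against the level of the 50 most soma-enriched transcripts as a percent of their level in somatic cells (horizontal axis, log scale), with 1 point for each of the 26 samples. Replicates 3 and 4 of wild-type PGCs at 5-7 h, at 68.17% and 60.42%, lie nearest the somatic samples, which stood at 98.61% to 101.21%. All other PGC samples have a member median of at least 10.79.

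At 1-3 h the members' enrichment in wild-type PGCs over somatic cells was 4.001 to 6.004 with a median of 4.34, and 59 of the 16623 transcripts (0.355%) were at least 16-fold enriched. In each of the 36, the lowest wild-type PGC sample at 1-3 h was at least 2.71 above the highest somatic sample, a gap that the threshold on the means largely set. In somatic cells the members' means ran from 4.39 to 10.18 with a median of 7.65. The brightest of the 16 control sequences there had 10.73, 10.96, 10.32 and 9.70 in replicates 1 to 4, and the control medians were 4.12, 4.10, 3.99 and 4.09. The change to 3-5 h had a median of -0.72 and ran from -1.47 to 1.66. Just inside the enrichment threshold were exu at 4.001, Flad1 at 4.01 and CG4404 at 4.01, and just outside were clos at 3.97, a second CG33181 row (FBtr0071205) at 3.96 and CG10445 at 3.96. Just inside the level threshold were exu at 10.06, stil at 10.08 and CG17658 at 10.14, and just outside were CG32741 at 9.95, Sp7 at 9.80 and FBtr0074037 at 9.50. Just inside the threshold on the change were spir at -1.47, RapGAP1 (FBtr0112603) at -1.44 and c(2)M at -1.35, and just outside were Acsf2 at -1.51, CG13380 at -1.52 and orb (FBtr0084386) at -1.55.

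**Figure D2:**
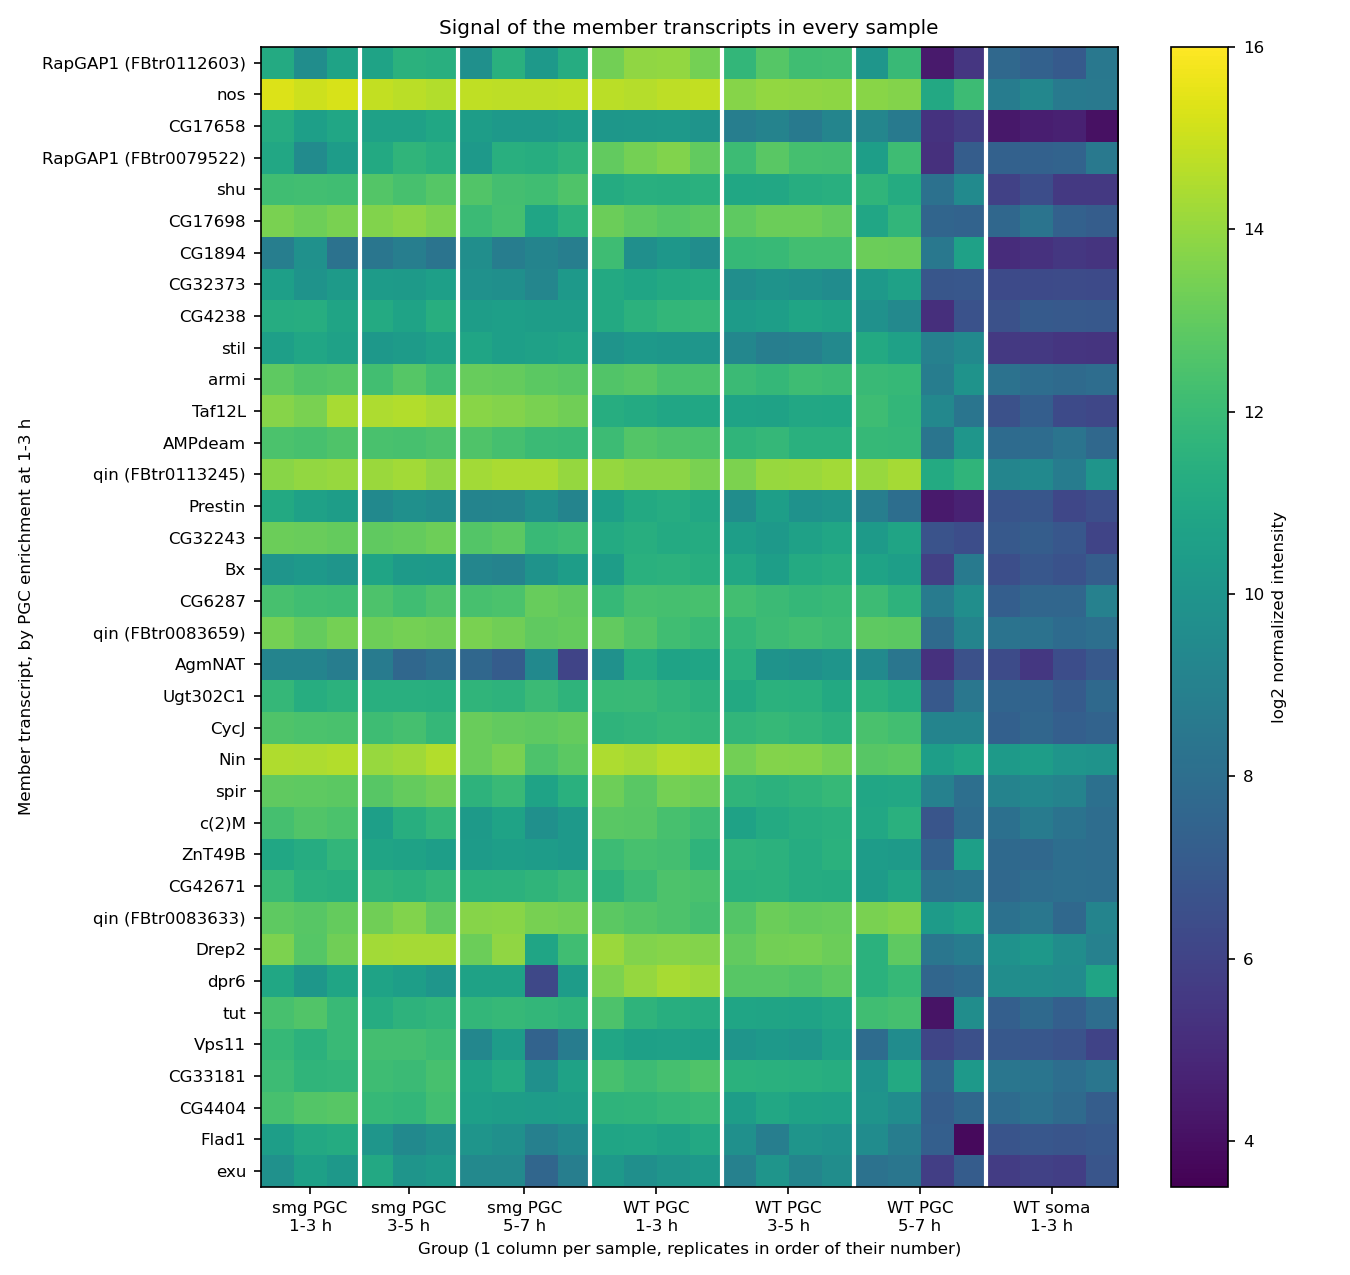
Log2 normalized intensity (colour) of the 36 members (rows, in order of their enrichment in wild-type PGCs at 1-3 h) in each of the 26 samples (columns, by group). All members are dimmer in the 4 somatic samples than in wild-type PGCs at 1-3 h, most are dimmer in replicates 3 and 4 of wild-type PGCs at 5-7 h than in replicates 1 and 2, and some, such as AgmNAT (6.07 to 9.43) and Vps11 (7.46 to 10.40), are dim in mutant PGCs at 5-7 h too.

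In mutant PGCs the members were enriched as well, although no mutant sample had been used in their choice. At 1-3 h, mutant PGCs were above wild-type somatic cells by 0.74 to 7.28 with a median of 4.28, against a median of 0.18 for all transcripts. The difference passed 2-fold for 35 of 36 members, as it did for 22.6% of all transcripts with 20.5% lower by as much, and the exception was dpr6, which encodes an immunoglobulin-domain cell surface protein, at 0.74. The somatic samples are those that chose the members, so this difference has no test.

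No transcript of nos or of the piRNA pathway members passed the 2-fold rule between any pair of ages in the mutant. nos, which encodes a translational repressor that works with Pumilio and is needed for PGC migration and survival, had 15.36, 15.05 and 15.25 in mutant PGCs at 1-3 h, 14.84, 14.72 and 14.55 at 3-5 h and 14.79, 14.74, 14.74 and 14.80 at 5-7 h. Wild-type PGCs had 14.72, 14.63, 14.75 and 14.83 at 1-3 h, 13.73, 13.97, 13.94 and 13.89 at 3-5 h, and 13.80, 13.69, 11.06 and 12.07 at 5-7 h. Somatic cells had 8.73, 9.30, 8.67 and 8.57. The mutant replicates at 5-7 h lay below those at 1-3 h, by 0.45 (SE 0.16), which did not pass (limma adjusted p = 0.0742).

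shu, which encodes a co-chaperone needed to load piRNAs, had 12.15, 12.24 and 12.15 in mutant PGCs at 1-3 h, 12.65, 12.38 and 12.71 at 3-5 h and 12.63, 12.28, 12.19 and 12.55 at 5-7 h. In wild-type PGCs it had 11.19, 11.37, 11.36 and 11.44 at 1-3 h, 10.96, 10.99, 11.30 and 11.39 at 3-5 h, and 11.67, 11.21, 8.17 and 9.50 at 5-7 h. Somatic cells had 5.94, 6.47, 5.59 and 5.56. The mutant values at 5-7 h and 1-3 h overlapped, with a difference of 0.23 (SE 0.18, limma adjusted p = 0.381), and all mutant samples were above all wild-type ones.

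armi, an RNA helicase gene of piRNA biogenesis, had 12.88, 12.61 and 12.69 in mutant PGCs at 1-3 h, 12.21, 12.68 and 12.22 at 3-5 h and 13.11, 13.05, 12.87 and 12.75 at 5-7 h. Wild-type PGCs had 12.60, 12.74, 12.39 and 12.43 at 1-3 h, 12, 11.84, 12.13 and 12.01 at 3-5 h, and 11.98, 11.86, 8.81 and 9.93 at 5-7 h, and somatic cells 8.21, 7.98, 7.82 and 7.96. The mutant groups at 5-7 h and 1-3 h overlapped, and the difference was 0.22 (SE 0.17, limma adjusted p = 0.400).

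The 3 rows of qin, whose Tudor-domain product keeps piRNA amplification between Aubergine and AGO3, stayed within 2-fold in the mutant. FBtr0113245 averaged in mutant PGCs 13.94 ± 0.14, 14.11 ± 0.17 and 14.26 ± 0.18 (SD, n = 3, 3 and 4) at the 3 ages in turn. In wild-type PGCs it averaged 13.80 ± 0.21 and 14.01 ± 0.33 (SD, n = 4 each) at the first and second ages and 14.21 in replicates 1 and 2 at the third. From 1-3 h to 5-7 h in the mutant the rows differed by 0.32 (FBtr0113245), 0.69 (FBtr0083633) and -0.07 (FBtr0083659), and none passed the 2-fold rule, the second having a limma adjusted p of 0.0321. The rows share a gene and are not independent.

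Of the piRNA pathway and germ plasm list, 23 of 30 genes could be named and 3, armi, nos and shu, are members. Of the 23 transcripts, 2 fell over 2-fold in mutant PGCs at 5-7 h against 1-3 h (8.7%, against 9.71% of all transcripts), gcl and AGO3, neither a member, and 0 rose by limma (against 9.62%). At an unadjusted p below 0.05 there were 11 in either direction, against 6507 of all 16623 transcripts. Only transcripts named through the study's lists could enter this and the later gene lists. The shares of all transcripts include unnamed ones, so list shares and these shares are not alike.

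A pair of genes with later roles in the germline was higher in 2 of 4 wild-type replicates at 5-7 h than at 3-5 h. No test was made, and CG1894 and Taf12L were also over 2-fold higher in these replicates. stil, which is needed for survival of the female germline, had 10.58, 10.90 and 10.65 in mutant PGCs at 1-3 h, 10.16, 10.38 and 10.66 at 3-5 h and 10.86, 10.54, 10.67 and 10.78 at 5-7 h. Wild-type PGCs had 9.95, 10.20, 10.10 and 10.06 at 1-3 h, 9.31, 8.85, 8.96 and 9.40 at 3-5 h, and 11.09, 10.67, 8.99 and 9.41 at 5-7 h, and somatic cells 5.57, 5.58, 5.42 and 5.36. In replicates 1 and 2 of wild-type PGCs at 5-7 h stil was 1.75 above the 3-5 h mean, the largest such difference among the 36, while mutant PGCs at 5-7 h differed from those at 1-3 h by 0.00 (SE 0.17, limma adjusted p = 0.994). tut, whose RNA-binding product acts with Bam and Bgcn to limit germ cell divisions in the testis, was 1.38 higher in the same replicates. With all 4 replicates stil was 0.91 higher than at 3-5 h and tut differed by -1.28. In wild-type PGCs tut had 10.83, 10.78, 10.76 and 10.99 at 3-5 h and 12.15, 12.29, 4.16 and 9.65 at 5-7 h. It averaged 11.76 ± 0.10 at 5-7 h against 12.31 ± 0.34 at 1-3 h in mutant PGCs (SD, n = 4 and 3), a difference of -0.55 that did not pass (limma adjusted p = 0.0849). Of the 14 transcripts of the germline sex and stem cell list, stil and nos are members, and in mutant PGCs at 5-7 h against 1-3 h 1 transcript, bgcn, rose (7.14%, against 9.62% of all transcripts) and 0 fell by limma (against 9.71%), with 3 higher and 3 lower at an unadjusted p below 0.05. Of all 16623 transcripts, 3256 were higher and 3251 lower at that unadjusted p.

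CycJ, a cyclin gene expressed in oocytes and early embryos, had 12.55, 12.45 and 12.40 in mutant PGCs at 1-3 h, 12.14, 12.32 and 11.82 at 3-5 h and 13.13, 13, 12.90 and 13.04 at 5-7 h. Wild-type PGCs had 11.65, 11.71, 11.85 and 11.77 at 1-3 h, 11.75, 11.85, 11.75 and 11.54 at 3-5 h, and 12.41, 12.23, 9.15 and 9.12 at 5-7 h, and somatic cells 7.35, 7.65, 7.29 and 7.47. All mutant values at 5-7 h lay above all those at 1-3 h, by 0.55 (SE 0.16, limma adjusted p = 0.0352), which is under the 2-fold rule. CycJ and armi are next to each other in the order of protein-coding genes, and so are CG4404 and Flad1. In RefSeq the genes of neither pair overlap. The labelled cDNA was double-stranded, so signal from the 2 strands of a region cannot be told apart.

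**Figure D3:**
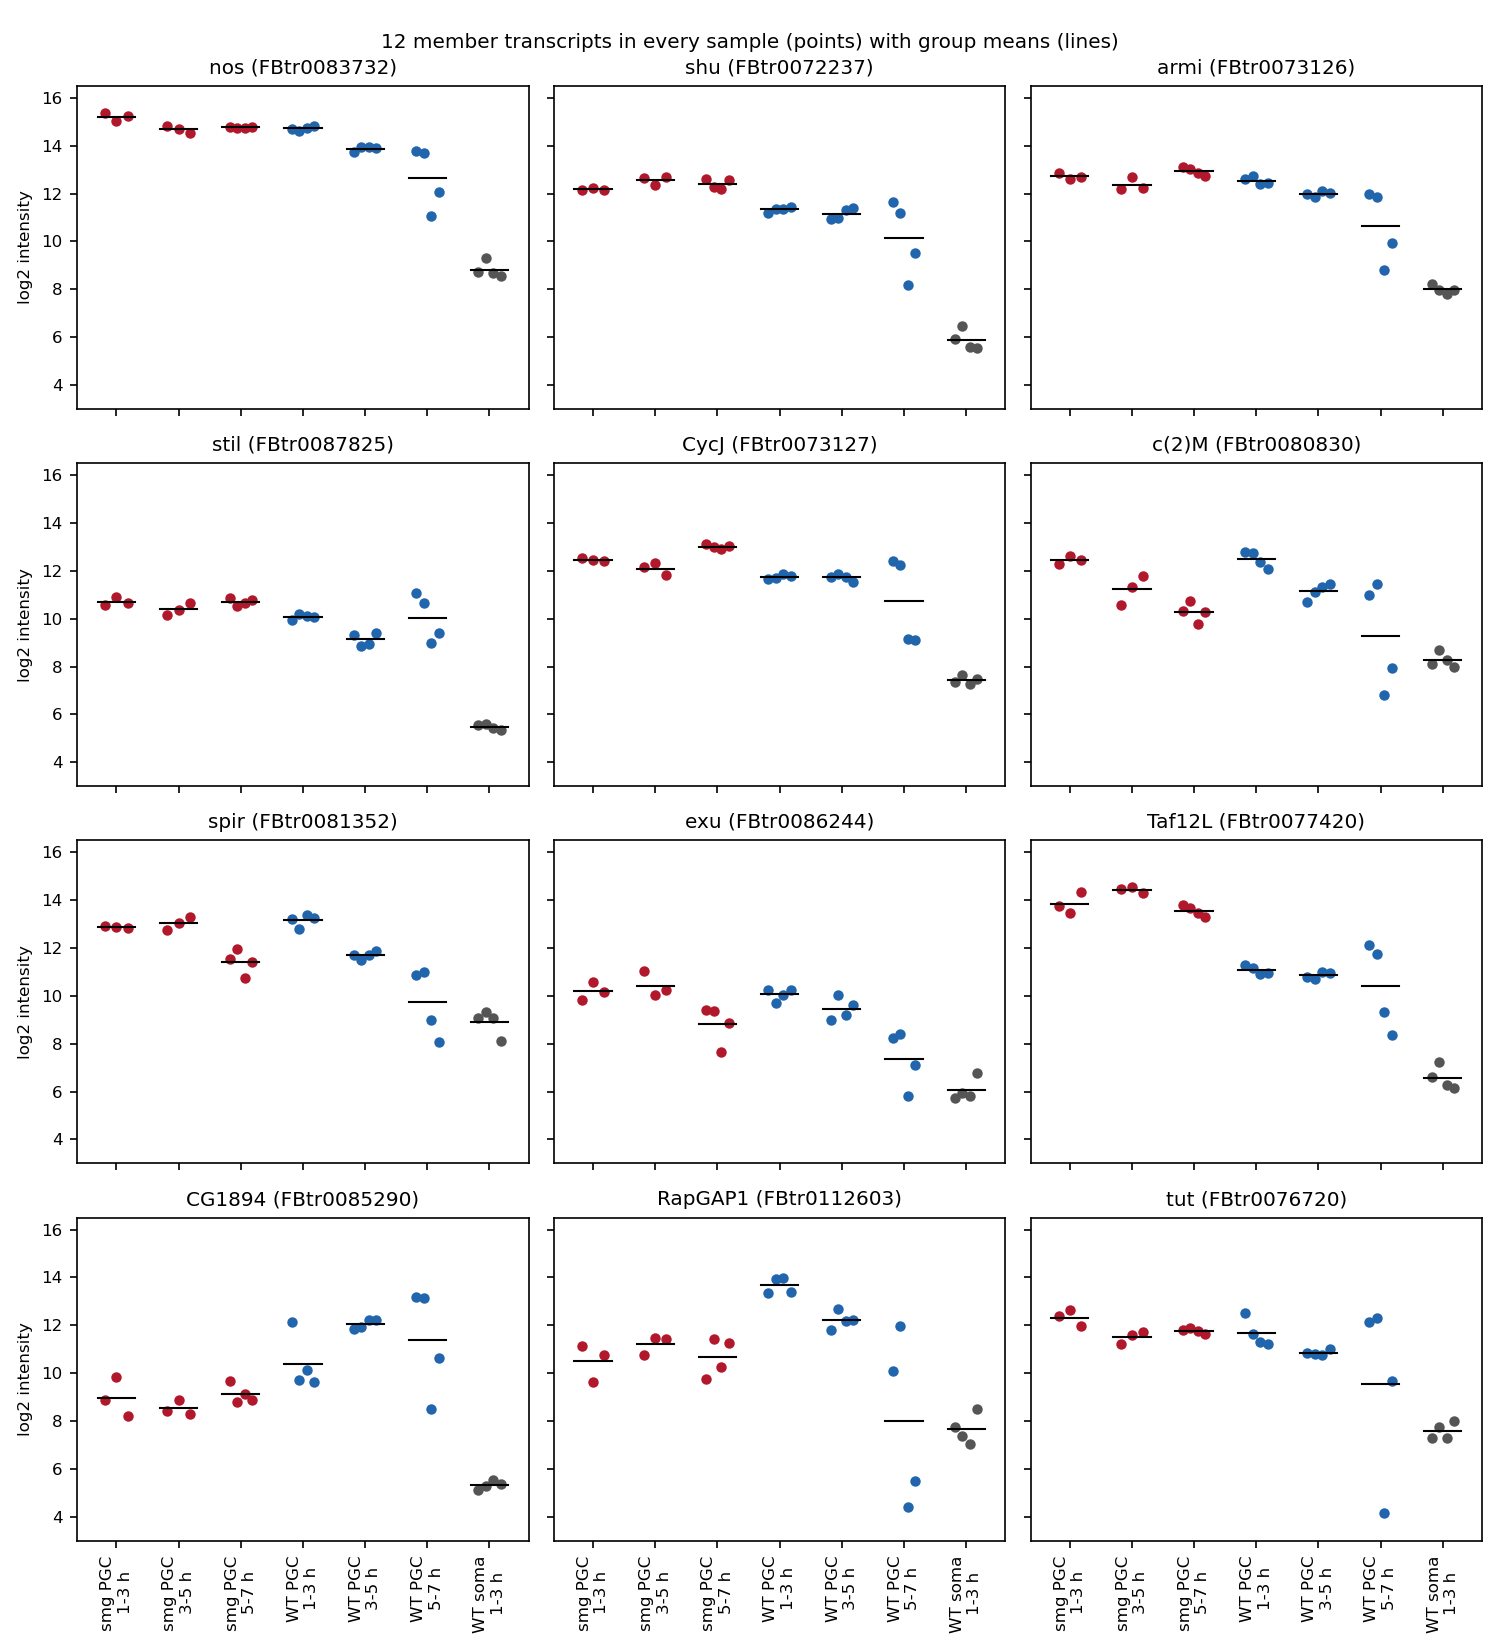
Log2 normalized intensity of 12 members in each sample (points) with the group mean (line), for mutant PGCs at 3 ages, wild-type PGCs at 3 ages and wild-type somatic cells. nos, shu, armi, stil and CycJ stay within 2-fold in the mutant, c(2)M, spir and exu have lower means there at 5-7 h, and replicates 3 and 4 of wild-type PGCs at 5-7 h lie below replicates 1 and 2 in every panel.

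The comparison of mutant PGCs at 5-7 h and 1-3 h used no sample of the choice and, by the labels, 1 dye. Of the 36 members, 9 fell over 2-fold (25%, limma adjusted p below 0.05), against 9.71% of all 16623 transcripts, and 0 rose, against 9.62%. At an unadjusted p below 0.05, 16 members were lower and 2 higher, against 3251 lower and 3256 higher of all 16623 transcripts. The median difference was -0.53 for the members and -0.01 for all transcripts. The members were chosen at a log2 signal of at least 10 in wild-type PGCs at 1-3 h, which 5932 of all transcripts reached. All transcripts include dimmer ones, so their shares and the members' shares, here and below, are not alike. In 16 members all mutant samples at 5-7 h were below all those at 1-3 h, in 3 all were above, and in 17 they overlapped, against 19.1% and 18.9% of all transcripts without overlap in these directions. The 9 were Vps11, c(2)M, CG4404, CG17698, Nin, spir, Prestin, Flad1 and CG33181. With the replicate number as a block, 5 were called. The soma-enriched transcripts stood at 1.45% to 2.60% of their somatic level in mutant PGCs at 5-7 h, against 0.36% to 0.46% at 1-3 h, and the somatic patterning genes summed to 3018 to 4762, against 4233 to 6756. The 3 mesoderm markers named, of 9 listed, summed to 2392 to 3530, against 4866 to 7135, and the 2 extracellular matrix and hemocyte markers named, of 9 listed, to 305 to 610, against 96 to 111. The 8 PGC markers summed to 135066 to 169165, against 225724 to 236738. The 1 endoderm marker named, of 4 listed, had 137 to 764, against 188 to 304, and the 1 neural marker named, of 8 listed, had 229 to 913, against 827 to 964. The ranges of the PGC, mesoderm and extracellular matrix lists do not overlap between the ages. The part of other cells in the result was not tested.

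Vps11, which encodes a tethering factor of endosomes and lysosomes, had the largest fall of the 36. It had 9.27, 10.40, 7.46 and 8.74 in mutant PGCs at 5-7 h, against 11.86, 11.55 and 11.96 at 1-3 h, a difference of -2.82 (SE 0.60, limma adjusted p = 0.0118), with 12.26, 12.28 and 12.09 at 3-5 h. Wild-type PGCs had 10.88, 10.61, 10.64 and 10.59 at 1-3 h, 10.01, 10.21, 10.06 and 10.63 at 3-5 h and 7.92, 9.56, 6.12 and 6.56 at 5-7 h, and somatic cells 6.94, 6.90, 6.69 and 6.01. The groups of the mutant do not overlap, and its values at 5-7 h spread over more than 2 log2 units.

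c(2)M, a kleisin-related component of the synaptonemal complex of meiosis, had 10.32, 10.73, 9.77 and 10.27 in mutant PGCs at 5-7 h, against 12.30, 12.63 and 12.45 at 1-3 h, a difference of -2.19 (SE 0.25, limma adjusted p = 0.000977). At 3-5 h the mutant had 10.56, 11.34 and 11.79. Wild-type PGCs had 12.80, 12.76, 12.35 and 12.08 at 1-3 h, 10.68, 11.13, 11.33 and 11.44 at 3-5 h and 11.01, 11.45, 6.79 and 7.93 at 5-7 h, and somatic cells 8.12, 8.69, 8.27 and 7.96. The mutant values at 5-7 h and 3-5 h overlapped (difference -0.96, limma adjusted p = 0.0855), and replicates 1 and 2 of wild type at 5-7 h were 0.09 above the 3-5 h mean.

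CG4404 had 10.54, 10.46, 10.43 and 10.47 in mutant PGCs at 5-7 h, against 12.34, 12.65 and 12.76 at 1-3 h, a difference of -2.11 (SE 0.17, limma adjusted p = 0.000373), and 11.88, 11.76 and 12.22 at 3-5 h. Wild-type PGCs had 11.64, 11.67, 11.82 and 11.95, then 10.48, 11.01, 10.71 and 10.63, and then 9.96, 9.57, 7.20 and 7.66 at the 3 ages, and somatic cells 7.89, 8.14, 7.84 and 7.18. Its mutant replicates at 5-7 h had an SD of 0.05. Its neighbour Flad1, which encodes FAD synthase, fell by 1.37 (SE 0.30, limma adjusted p = 0.0122), and a second Flad1 row (FBtr0073696), outside the members, fell by 1.04.

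CG17698 had 12.02, 12.29, 10.87 and 11.54 in mutant PGCs at 5-7 h, against 13.48, 13.25 and 13.50 at 1-3 h, a difference of -1.73 (SE 0.33, limma adjusted p = 0.00779), and 13.65, 13.84 and 13.54 at 3-5 h. Wild-type PGCs had 13.21, 12.90, 12.72 and 12.87, then 12.89, 13.17, 13.20 and 12.99, and then 10.92, 11.73, 7.58 and 7.48 at the 3 ages, and somatic cells 7.67, 8.33, 7.39 and 7.18. In both genotypes every value at 5-7 h was below every earlier one.

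Nin, whose product ninein is a centrosomal protein that anchors microtubules, had 13.13, 13.50, 12.53 and 12.85 in mutant PGCs at 5-7 h, against 14.50, 14.47 and 14.58 at 1-3 h, a difference of -1.51 (SE 0.25, limma adjusted p = 0.00406), and 14.05, 14.24 and 14.56 at 3-5 h. Wild-type PGCs had 14.46, 14.31, 14.60 and 14.53, then 13.35, 13.66, 13.63 and 13.41, and then 12.73, 12.87, 10.49 and 10.85 at the 3 ages, and somatic cells 10.33, 10.45, 10.04 and 9.91. The mutant groups at 5-7 h and 1-3 h do not overlap.

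spir encodes an actin nucleator that organizes the oocyte cytoplasm. It had 11.56, 11.98, 10.75 and 11.42 in mutant PGCs at 5-7 h, against 12.94, 12.90 and 12.83 at 1-3 h, a difference of -1.46 (SE 0.28, limma adjusted p = 0.00797), and 12.77, 13.05 and 13.31 at 3-5 h. Wild-type PGCs had 13.23, 12.78, 13.39 and 13.25, then 11.70, 11.51, 11.69 and 11.88, and then 10.88, 10.99, 9 and 8.06 at the 3 ages, and somatic cells 9.09, 9.31, 9.07 and 8.12. At 3-5 h all mutant values were above all wild-type ones, by 1.35 in the mean. A second spir row (FBtr0081354), enriched by 2.69 and thus no member, changed by -1.71 from 1-3 h to 3-5 h in wild-type PGCs. From 1-3 h to 5-7 h in the mutant that row differed by -0.68 and did not pass (limma adjusted p = 0.385).

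exu, which encodes a factor that localizes bicoid mRNA in the oocyte, had 9.40, 9.37, 7.64 and 8.86 in mutant PGCs at 5-7 h, against 9.84, 10.59 and 10.15 at 1-3 h, a difference of -1.38 (SE 0.44) that missed the threshold (limma adjusted p = 0.0527), and 11.03, 10.03 and 10.24 at 3-5 h. Wild-type PGCs had 10.25, 9.71, 10.04 and 10.25, then 8.98, 10.02, 9.20 and 9.64, and then 8.22, 8.39, 5.80 and 7.12 at the 3 ages, and somatic cells 5.73, 5.92, 5.82 and 6.79. A second exu row (FBtr0086242), enriched by 3.79 and thus no member, changed by -3.60 from 1-3 h to 3-5 h in wild-type PGCs, against -0.61 for the member row, values that the choice of members used. In the mutant from 1-3 h to 5-7 h it differed by -0.81 and did not pass the 2-fold rule. Prestin, of the SLC26 anion transporter family, and CG33181 completed the 9 with falls of 1.43 (SE 0.24, limma adjusted p = 0.00443) and 1.26 (SE 0.32, limma adjusted p = 0.0244), with CG33181 called in 7 of 14 alternatives. Of the CG33181 rows outside the members, FBtr0071205 differed by -1.48 in the same comparison (limma adjusted p = 0.0348). FBtr0071206 differed by 0.29 and did not pass (limma adjusted p = 0.369).

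**Figure D4:**
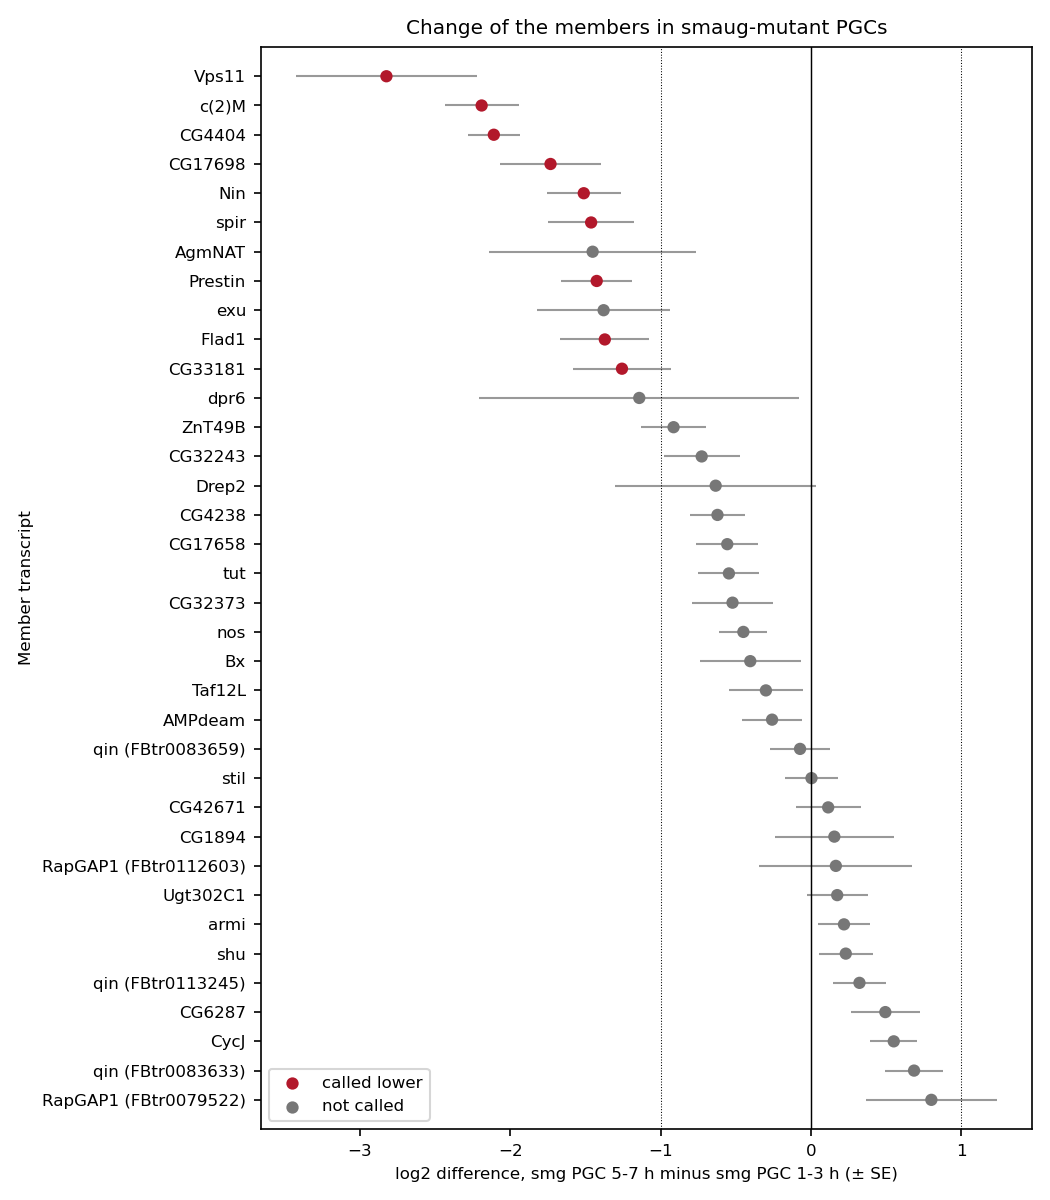
Difference in mean log2 signal of each of the 36 members between smaug-mutant PGCs at 5-7 h (n = 4) and at 1-3 h (n = 3), with bars of ± SE from limma. The 9 members called lower (red) run from -2.82 for Vps11 to -1.26 for CG33181, and no member lies above 1.

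Of the oocyte RNA localization and translational control list, 10 of 28 transcripts fell over 2-fold in this comparison (35.7%, against 9.71% of all transcripts), among them spir and 3 rows of orb, and 0 rose (against 9.62%) by limma, with 16 at an unadjusted p below 0.05 in either direction. Of the meiosis and early cell cycle list, 6 of 18 transcripts fell (33.3%, against the same 9.71%), c(2)M as the only member with mei-S332, CycA, cort, twe and stg, and 0 rose, with 9 at an unadjusted p below 0.05. Of all 16623 transcripts, 6507 had an unadjusted p below 0.05. Both lists hold only transcripts named through the study's lists, unlike the shares of all transcripts, so the shares are not alike. The 10 transcripts that met the enrichment and level thresholds but fell by 1.5 or more in wild type, of orb, CG4174, mtsh, Acsf2, CG8089, CG13380 and grsm, had 8 called lower (80%, against 9.71%) and 0 higher (against 9.62%) in the mutant by limma, with a median of -1.46, and 1 of them, grsm, was higher at an unadjusted p below 0.05. The difference between the 2 sets was not tested. All 3 orb rows and both CG4174 rows were among the 8 called lower, and rows of the same gene are not independent. The orb rows also count among the falls of the oocyte list.

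In the mutant, 7 members fell in the later interval and 3 in the earlier one, a difference that was not tested. At 5-7 h against 3-5 h, 7 of 36 members fell over 2-fold (19.4%, against 6.25% of all transcripts) and 0 rose (against 6.03%), with 14 lower and 2 higher at an unadjusted p below 0.05. Of all 16623 transcripts, 2613 were lower and 2956 higher at that unadjusted p. Vps11 fell by 3.24 (SE 0.60, limma adjusted p = 0.0106), CG17698 by 2.00 (SE 0.33, limma adjusted p = 0.0082), spir and exu both by 1.62. CG33181, CG4404 and Nin differed by -1.60, -1.48 and -1.28. Without mutant replicate 3 at 3-5 h 4 were called lower. At 3-5 h against 1-3 h, 3 members fell (against 5.56% of all transcripts), with differences of -1.23 for c(2)M, -1.14 for Flad1 and -1.12 for Prestin, and 1, Drep2 of the DNA fragmentation factor family, rose by 1.12 (against 5.35%). Leaving out any 1 replicate left 0 or 1 of the 3 falls and 0 or 1 rise in the earlier interval, and the block by replicate number left 0 calls in both intervals. By the labels the 3-5 h mutant samples carry the other dye.

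In the mutant against wild type at 5-7 h, 0 of 36 members were called with all 4 wild-type replicates, against 1.5% of all transcripts higher and 0.993% lower, although the median difference of the members was 2.14, against 0.03 for all transcripts, and 14 were higher and 0 lower at an unadjusted p below 0.05. Of all 16623 transcripts, 1990 were higher and 1645 lower at that unadjusted p. Without replicates 3 and 4 of wild type, the members' median was 0.34, and 5 members were higher (13.9%, against 2.44% of all transcripts) and 1 lower (2.78%, against 2.39%). With replicates 3 and 4 as the only wild-type samples, 30 were higher, against 13.4% of all transcripts. The values that follow are against replicates 1 and 2, and their genes were chosen after these values were seen.

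CG32243 had 12.65, 12.87, 11.97 and 12.10 in the mutant at 5-7 h, against 10.29 and 10.79 in wild-type replicates 1 and 2 (difference 1.86, SE 0.33, limma adjusted p = 0.0281) and 6.71 and 6.47 in replicates 3 and 4. Taf12L, whose product is a testis form of a TFIID subunit, had 13.78, 13.68, 13.47 and 13.29 in the mutant, against 12.14 and 11.76 (difference 1.60, SE 0.24, limma adjusted p = 0.0167) and 9.34 and 8.36. The mutant samples of both genes lay above all 4 wild-type replicates.

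CG17658 had 10.46, 10.19, 10.25 and 10.45 in the mutant, against 9.26 and 8.65 in wild-type replicates 1 and 2 (difference 1.38, SE 0.24, limma adjusted p = 0.0286) and 5.33 and 5.70 in replicates 3 and 4. nos and armi were higher by 1.02 (SE 0.18, limma adjusted p = 0.0304) and 1.03 (SE 0.21, limma adjusted p = 0.0412), and shu by 0.97 (SE 0.24), which did not pass (limma adjusted p = 0.0710). CG1894 went the other way, with 9.69, 8.81, 9.12 and 8.87 in the mutant, against 13.20 and 13.14 in replicates 1 and 2 (difference -4.05, SE 0.29, limma adjusted p = 0.00231) and 8.51 and 10.63 in replicates 3 and 4, among which the mutant values lie.

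**Figure D5:**
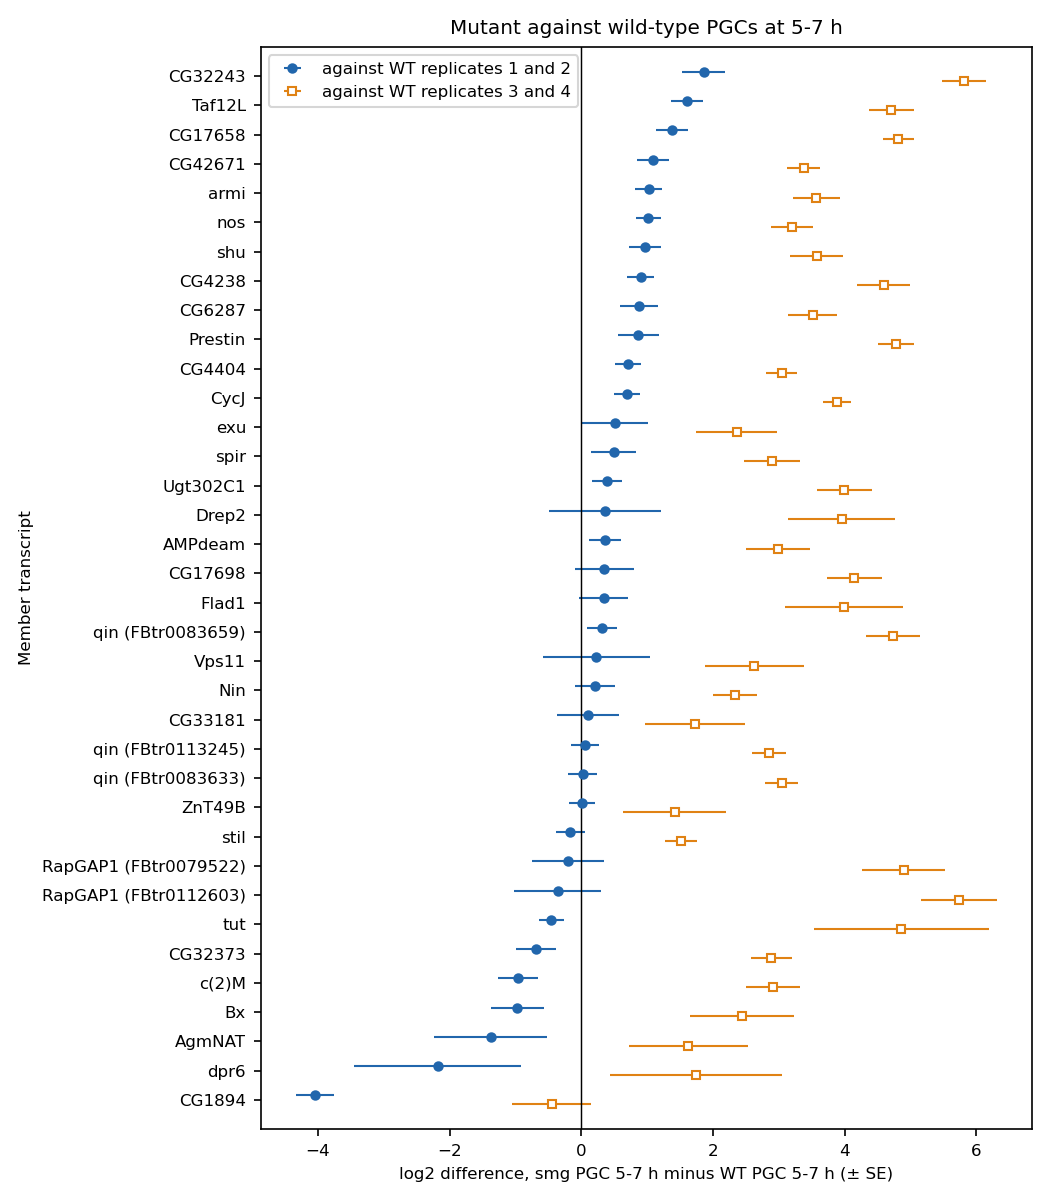
Difference in mean log2 signal between smaug-mutant PGCs (n = 4) and wild-type PGCs at 5-7 h for each of the 36 members, against wild-type replicates 1 and 2 (filled circles) and 3 and 4 (open squares), with bars of ± SE from limma. Every member's square lies to the right of its circle, and CG1894 lies farthest left, at -4.05 against replicates 1 and 2.

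At the earlier ages, where the wild-type samples had chosen the members, the genotypes' values are a description. At 1-3 h the median difference of the members between mutant and wild-type PGCs was 0.04, and 3 members were over 2-fold higher and 6 over 2-fold lower, against 9.01% and 9.38% of all transcripts. At 3-5 h it was 0.54, with 10 higher and 4 lower, against 9.72% and 9.87%. Taf12L averaged 13.86 ± 0.44 in mutant and 11.09 ± 0.18 in wild-type PGCs at 1-3 h, and 14.44 ± 0.11 in mutant and 10.86 ± 0.14 in wild-type PGCs at 3-5 h (SD, n = 3 and 4). CG32243 was next, with 13.12 ± 0.05 in mutant and 11.18 ± 0.09 in wild-type PGCs at 1-3 h (SD, n = 3 and 4).

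At 1-3 h the 6 members that were over 2-fold lower in the mutant than in wild type were dpr6, both rows of RapGAP1, which encodes an activator of the GTPase activity of Rap1, AgmNAT, an agmatine acetyltransferase gene, CG1894 and Bx, which encodes a LIM-only protein. dpr6 had 10.97, 10.12 and 10.84 in mutant PGCs at 1-3 h, against 13.52, 14.02, 14.34 and 14.17 in wild type. RapGAP1 (FBtr0112603) had 11.14, 9.63 and 10.74 in the mutant, against 13.34, 13.94, 13.99 and 13.38 in wild type. In both the groups are apart by more than 2 log2 units. At 3-5 h the 4 members over 2-fold lower in the mutant were CG1894, dpr6, AgmNAT and RapGAP1 (FBtr0112603). Other RapGAP1 rows were less enriched in wild-type PGCs over somatic cells at 1-3 h, by 0.56 (FBtr0091494) and 2.18 (FBtr0112606), against 6.004 and 5.55 for the member rows.

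CG1894 was the only member with a rise over 2-fold in wild-type PGCs from 1-3 h to 3-5 h. It had 8.87, 9.82 and 8.21 in mutant PGCs at 1-3 h, 8.40, 8.86 and 8.31 at 3-5 h, and was 0.16 higher at 5-7 h than at 1-3 h (SE 0.39, limma adjusted p = 0.808). Wild-type PGCs had 12.12, 9.73, 10.13 and 9.62 at 1-3 h, 11.86, 11.93, 12.24 and 12.23 at 3-5 h and 13.20 and 13.14 in replicates 1 and 2 at 5-7 h. Replicate 1 at 1-3 h already stood at the 3-5 h level. Somatic cells had 5.10, 5.30, 5.54 and 5.36.

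In wild-type PGCs the median of the members was lower at 5-7 h. With replicates 1 and 2 the median difference from 1-3 h was -1.23, against -0.06 for all transcripts, and 19 members were over 2-fold lower and 1 higher, against 12% and 13.8% of all transcripts. With all 4 replicates it was -2.65, and 31 were lower and 0 higher, against 14.5% and 14.9%. From 3-5 h the median with replicates 1 and 2 was -0.25, with 11 lower and 4 higher, against 6.5% and 6.94%, and the 4 were stil, tut, CG1894 and Taf12L. With all 4 replicates it was -1.79, with 31 lower and 0 higher, against 11.6% and 10.3%. All 9 members that fell in the mutant were also over 2-fold lower in replicates 1 and 2 than at 1-3 h, with differences from -2.52 to -1.27, as were 10 of the other 27. These are counts of means without a test, since the 1-3 h samples and 3-5 h samples chose the members.

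Several of the other members encode enzymes and transporters. AMPdeam, the AMP deaminase gene, averaged 12.46 ± 0.12, 12.43 ± 0.08 and 12.20 ± 0.28 in mutant PGCs at the 3 ages (SD, n = 3, 3 and 4). Ugt302C1, a UDP-glycosyltransferase gene, averaged 11.56 ± 0.26, 11.38 ± 0.02 and 11.73 ± 0.20. Neither differed by more than 0.26 between the first and the last age, whereas ZnT49B, a zinc transporter gene, was 0.91 lower at the last (SE 0.22, limma adjusted p = 0.0185), below the 2-fold rule. CG4238, CG6287, CG32373, CG42671 and CG17658 differed by -0.62, 0.49, -0.52, 0.11 and -0.56 between these ages, and none passed the 2-fold rule. CG17658 had 4.31, 4.53, 4.64 and 4.07 in somatic cells. The control sequences had medians of 4.12, 4.10, 3.99 and 4.09 in the same samples.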

How the data were processed

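Deposited values were linear intensities, 1 per transcript and sample, that the authors quantified in Nimblescan from amplified, double-stranded cDNA and normalized across arrays by the RMA quantile method in ArrayStar 3; an overall change in RNA per cell cannot be seen. Log2 was taken. The array medians were 7.62 to 8.02, and precision is limited by how many arrays there are. FlyBase transcript identifiers mark 16623 of 17130 features, which were used. Which samples shared an array was not given in the sources used here, and 0 sample columns were left out. Genes were paired with identifiers by matching values printed in the study's supplementary lists to values computed from the deposited intensities, at 6 significant digits, which named 5395 transcripts with 0 conflicts among 2220 paired more than once. Those lists hold transcripts that the study found expressed, enriched, degraded, unchanged or newly made in these same data. Named transcripts are therefore not an even sample of all transcripts. Names were updated through RefSeq.

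The labels call the replicates biological. Groups were compared in pairs with limma 3.58.1 (R 4.3.3; lmFit, eBayes) over all 16623 transcripts with Benjamini-Hochberg adjustment. Calls needed a change over 2-fold and an adjusted p below 0.05. SAM, the methods' tool, permutes samples and was not run. In simulated data with normal noise and 200 seeded changes, the fits recovered 75.5% to 80% of these between mutant ages. Between genotypes at 5-7 h they recovered 54.5%. False calls were 0.91% to 6.21% of all calls. The simulation did not hold the split of wild-type replicates 1 and 2 from 3 and 4, so it does not cover that feature of the data. Members, lists and tests were chosen with earlier results of these data known. Named with every value were members of the gene lists and the 5 largest called changes in each direction. Alternatives were the replicate number as a block, a test against 1.5-fold, array weights, median centring, all 7 groups in 1 fit, dim transcripts (mean log2 below 7) left out, quantile normalization repeated, subsets of wild-type replicates at 5-7 h and each sample left out. Correlations of deviations ran from -0.14 to 0.22 between same-numbered samples and from -0.24 to 0.19 between differently numbered ones. In groups of 3 or 4 this cannot settle whether the numbers pair samples. Figures used Python with matplotlib.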

Additional observations from a re-analysis of the deposited data

Results flagged for a closer look

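Of 180 groups of 4 values (36 members in 5 groups), 8 held 1 sample far from the other 3, and chance alone gives about 1 in 20. In smaug-mutant PGCs at 5-7 h, dpr6 was at 6.21 in replicate 3 against 10.41 to 10.70 in the others, and Prestin at 9.73 in replicate 3 against 9.13 to 9.21. In wild-type PGCs, ZnT49B was at 7.38 in replicate 3 at 5-7 h against 10.32 to 10.54, so that replicate 4 did not share the low value that most members had there. AgmNAT was at 11.44 in replicate 1 at 3-5 h against 9.78 to 10.03, and CG6287 at 11.87 in replicate 1 at 1-3 h against 12.32 to 12.36. In somatic cells, replicate 4 was high for RapGAP1 (FBtr0079522, 8.54 against 7.39 to 7.50) and for dpr6 (10.81 against 9.54 to 9.65), and replicate 1 was low for CG4238 (6.59 against 6.96 to 7.02).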

How the results depend on the processing

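Of 36 members, 9 were lower in mutant PGCs at 5-7 h against 1-3 h. With the replicate number as a block 5 were called, and with the test against 1.5-fold 5. Leaving out 1 sample gave 8 to 9 lower and 0 higher. For 3-5 h against 1-3 h (3 lower, 1 higher), all 7 groups in 1 fit, the replicate block and the test against 1.5-fold each gave 0 lower and 0 higher, median centring gave 0 higher, and leaving out 1 sample gave 0 to 1 lower and 0 to 1 higher. For 5-7 h against 3-5 h (7 lower, 0 higher), the replicate block gave 0 lower and the test against 1.5-fold 1; leaving out 1 sample gave 4 to 8 lower and 0 to 1 higher, with 4 lower without mutant replicate 3 at 3-5 h and 1 higher without replicate 2. For mutant against wild-type PGCs at 5-7 h (0 lower, 0 higher), all 7 groups in 1 fit gave 1 lower and 23 higher, array weights 1 lower and 3 higher, wild-type replicates 1 and 2 alone 1 lower and 5 higher, replicates 3 and 4 alone 30 higher, and leaving out 1 sample 0 lower and 0 to 2 higher, with 2 without wild-type replicate 1. The replicate block gave 0 lower and 0 higher there. The cause of these shifts was not tested. No called member changed direction under an alternative, and in 206 of 276 refits of called members the call remained. c(2)M, CG4404 and Nin were called lower at 5-7 h against 1-3 h in all 14 alternatives. Whether the replicate numbers pair the samples is not known, so the fits with and without the block are both given.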

Other observations

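The GFP feature of the array overlapped between PGCs and somatic cells. It had 12.39 to 13.02 in wild-type PGCs and 12.49 to 13.02 in somatic cells at 1-3 h, and 10.81 to 13.21 in the 10 mutant samples. None of the 507 features without a FlyBase transcript identifier met the conditions that chose the members.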
